A study of Drosophila melanogaster with 2 samples.

Results

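Of the 4000 regions of highest pooled foxo signal in wandering larvae, 404 (10.1%, 95% Clopper-Pearson interval 9.18 to 11.1) lay between genes. They were chosen by position and signal: the summit was over 500 bp from any annotated transcription start site (TSS) and outside every annotated gene body. Of the other regions, 2088 (52.2%) had a summit within 500 bp of a TSS and 1508 (37.7%) had one further away inside a gene body. Chromatin immunoprecipitation sequencing (ChIP-seq) had been run on whole wandering larvae of the third instar, males and females pooled, of a Drosophila melanogaster line that stably carries a transgene for foxo with green fluorescent protein at its C-terminus. The labels describe a precipitation through the fluorescent protein, while another of their fields names foxo as the antibody target. There was 1 group of 2 biological replicates, numbered 5 and 6, both of this same line, stage and tissue. There was no second condition, so the results describe regions and give no test between conditions. All tissues of the animal were mixed, so a region bound in a few cells and one bound weakly in many cannot be told apart.

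Foxo is the fly member of the FOXO class of forkhead transcription factors. Insulin signalling, through the kinase Akt, keeps it in the cytoplasm, and when signalling is low it enters the nucleus and acts on genes of growth, metabolism and stress resistance. Forkhead factors of this class bind DNA at sites with the core TGTTTAC. Intergenic sequence in flies holds many enhancers, which act on promoters at a distance, so the nearest gene of a region need not be the gene it acts on.

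The sequences below are the 201 bp centred on the summit, on the plus strand of dm6. The first 4 belong to the members of highest signal for which sequence is shown, and none of these 4 holds the forkhead core. Capitals mark GAGAGAG, the repeat bound by GAGA factor, or its reverse complement. The first lies at chr2L:2202320-2202520, the second at chr3L:10776465-10776665, the third at chrX:493904-494104 and the fourth at chr3L:11353125-11353325.
COX7AL2 to CG31668: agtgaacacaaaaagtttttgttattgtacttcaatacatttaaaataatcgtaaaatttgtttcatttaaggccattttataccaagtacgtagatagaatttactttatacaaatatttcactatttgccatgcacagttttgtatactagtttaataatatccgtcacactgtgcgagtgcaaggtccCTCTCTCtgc
CG43245 to lncRNA:CR44544: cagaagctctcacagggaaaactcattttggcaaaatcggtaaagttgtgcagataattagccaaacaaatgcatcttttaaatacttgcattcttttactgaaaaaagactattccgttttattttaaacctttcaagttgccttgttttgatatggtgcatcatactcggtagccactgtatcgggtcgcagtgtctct
CG17896 to CG17778: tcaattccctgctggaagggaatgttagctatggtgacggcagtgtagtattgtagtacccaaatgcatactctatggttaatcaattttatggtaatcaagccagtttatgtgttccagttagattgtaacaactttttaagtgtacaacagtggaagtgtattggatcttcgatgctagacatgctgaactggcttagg
lncRNA:CR45251 to CG6163: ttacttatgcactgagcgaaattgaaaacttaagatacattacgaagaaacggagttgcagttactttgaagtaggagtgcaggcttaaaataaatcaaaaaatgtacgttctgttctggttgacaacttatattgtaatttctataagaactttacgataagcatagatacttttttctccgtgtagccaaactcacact

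The next 4 sequences belong to the highest members that hold TGTTTAC or its reverse complement, shown because they carry the core of the precipitated factor, and the last is the next highest member with GAGAGAG. Capitals again mark these 2 sequences. They lie, in order, at chr3L:11010419-11010619, chr3L:17658436-17658636, chr2L:3534572-3534772, chr3L:6218680-6218880 and chrX:10265785-10265985. The forkhead core starts 70 bp after the summit in the first, 55 bp after it in the second, 95 bp before it in the third and 15 bp before it in the fourth. The first, between klu and Fad2, also holds 2 runs of the GAGA repeat. They lie on the other side of the summit from the core, starting 50 and 31 bp before the summit.
klu to Fad2: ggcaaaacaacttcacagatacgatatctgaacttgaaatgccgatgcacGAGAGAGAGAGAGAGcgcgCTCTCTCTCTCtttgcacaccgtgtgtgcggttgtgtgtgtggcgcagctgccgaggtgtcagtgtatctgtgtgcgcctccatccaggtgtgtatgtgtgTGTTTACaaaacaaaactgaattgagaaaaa
CG7484 to Crtc: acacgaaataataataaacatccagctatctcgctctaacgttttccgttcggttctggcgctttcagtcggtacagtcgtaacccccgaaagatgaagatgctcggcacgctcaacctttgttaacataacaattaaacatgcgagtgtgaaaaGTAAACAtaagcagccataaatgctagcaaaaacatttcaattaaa
IFT57 to lncRNA:CR44308: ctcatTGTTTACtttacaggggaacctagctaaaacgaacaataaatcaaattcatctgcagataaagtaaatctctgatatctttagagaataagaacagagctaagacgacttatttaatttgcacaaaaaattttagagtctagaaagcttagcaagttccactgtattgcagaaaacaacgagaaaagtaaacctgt
LanA to CG33946: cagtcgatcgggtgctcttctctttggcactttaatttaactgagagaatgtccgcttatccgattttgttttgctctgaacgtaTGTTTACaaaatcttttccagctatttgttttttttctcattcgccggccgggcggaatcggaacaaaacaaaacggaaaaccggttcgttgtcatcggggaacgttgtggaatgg
CG12643 to alpha-Man-Ia: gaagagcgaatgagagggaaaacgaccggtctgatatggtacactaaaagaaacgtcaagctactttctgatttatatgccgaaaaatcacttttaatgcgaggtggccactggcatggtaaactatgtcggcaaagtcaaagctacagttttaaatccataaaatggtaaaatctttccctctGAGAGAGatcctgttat

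The pooled signal, a value from the authors' caller in units the sources do not explain, ranged from 43.7 to 337 among the members, with a median of 59.6, against 59.8 over all 4000 regions. These values chose the members and are given as a description. The lowest member had a signal of 43.7 and the highest intergenic region just outside the 4000 had 43.6. The 3 members nearest to a TSS lay 507, 509 and 510 bp from it, and the 3 nearest regions on the other side of that limit lay at 498, 488 and 478 bp. In all, 876 regions outside gene bodies were within 500 bp of a TSS and so were not members. Of the 404, 386 were 380 bp wide. The authors' thresholded list, made by irreproducible discovery rate (IDR), held 136 members (33.7%), against 35.7% of all 4000 regions. That list was the top of the same pooled ranking, so it adds nothing to the order by signal.

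The highest members lay beside genes of varied function. Of the 15 highest, 9 had a non-coding RNA gene on at least 1 side, as did 178 (44.1%) of the members as a whole. The highest of all lay between Su(z)2, a gene related to the Polycomb group, and CG13323 (2R, 13035222 to 13035450). Its pooled signal was 337, and its signal was 160 in replicate 5 and 193 in replicate 6, where it ranked 30 and 14. It was 27410 bp from the body of Su(z)2 and 9374 bp from that of CG13323. The second lay between COX7AL2, named for a subunit of cytochrome c oxidase, and CG31668, with a pooled signal of 290 and replicate signals of 125 and 161 (ranks 71 and 25). The third, between CG43245 and lncRNA:CR44544, had a pooled signal of 284 and replicate signals of 124 and 172 (ranks 73 and 20). All 3 ranked higher in replicate 6 than in replicate 5.

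The next 2 members in order ranked higher in replicate 5. The region between CG17896 and CG17778 had a pooled signal of 223 and replicate signals of 132 and 88.9. It was the only one of the first 5 within 1000 bp of a TSS, 509 bp upstream of CG17896. The region between lncRNA:CR45251 and CG6163 followed at 202, with 128 in replicate 5 and 69.9 in replicate 6. After a gap the sixth, between Sol1 and the cytochrome P450 gene Cyp9f2, stood at 159, with ranks of 215 and 219. It lay in a stretch of only 437 bp between the 3′ ends of these convergent genes.

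The remaining 9 of the 15 had pooled signals of 139 to 158. One lay 1728 bp upstream of E(spl)malpha-BFM, a Notch target of the Bearded family, with ranks of 235 and 251. Another was between CG12643 and alpha-Man-Ia, a mannosidase gene of the Golgi, at ranks 120 and 364. A second member between COX7AL2 and CG31668 had a signal of 151, and the region between asRNA:CR44087 and glec, which encodes the carbohydrate-binding protein gliolectin, also had 151. The region between lncRNA:CR45641 and lncRNA:CR45643 had 156, with ranks of 234 and 236, and that between CG3149 and lncRNA:CR42794 had 149, with ranks of 217 and 332. CG18404 and lncRNA:CR46113 flanked 2 of the 15, at 140 and 139. The exception was the region between lncRNA:CR44761 and Ppa, which encodes an F-box protein: its pooled signal of 158 came with 136 in replicate 5 (rank 53) and 22.6 in replicate 6 (rank 5819). The other 14 were among the 4000 highest regions of both replicates.

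Most members had a counterpart in each replicate's list, but fewer than that ranked high in both. A summit within 150 bp was present in both replicate lists for 358 members (88.6%, 85.1 to 91.5), against 83.8% of all 4000 regions, 84.8% of those in gene bodies and 82.0% of those near a TSS. Replicate 6 alone held 35 members, replicate 5 alone 10, and neither held 1. Among the 4000 highest regions of both replicates there were 167 members (41.3%, 36.5 to 46.3), against 38.9% of all 4000, a value inside the members' interval. The 4000 highest of replicate 5 held 263 members and those of replicate 6 held 278, while 30 were in neither. The pool was made from these same replicates, so a match in one of them is no independent check.

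Members of higher pooled signal were more often high in both replicates, as the making of the pool favours. Of the 136 members in the IDR list, 109 (80.1%, 72.4 to 86.5) were among the 4000 highest of both replicates, and of the 268 below it 58 (21.6%, 16.9 to 27.1) were. A q-value of at most 0.01 in both lists was reached by 81 members (20.0%, 16.3 to 24.3), against 22.0% of all 4000. In replicate 5 it was met by 94 members, in replicate 6 by 334. These numbers move with the lists as a whole, in which 1061 regions of replicate 5 and 6870 of replicate 6 met that threshold. Across the 358 members matched in both, the 2 replicate signals had a Spearman's rho of 0.18, against 0.19 over 1279 regions in gene bodies and 0.23 over 1713 near a TSS. All these points share the same 2 libraries and were selected on the pool of both, and the value is a description.

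Some members were high in 1 replicate and low in the other. Those named here were matched in both lists, so members without a match in 1 of them are left out. Beside the region at Ppa, those with the most one-sided ranks towards replicate 5 were the region upstream of Atf3, a bZIP transcription factor gene, with ranks of 1019 and 23066, the region between Fer2, a bHLH factor gene, and CG6006 (932 and 18292), and the region between C1GalTA, a galactosyltransferase gene, and CG31886 (524 and 9743). Towards replicate 6 they were the region between lncRNA:CR45755 and lncRNA:CR45437 (6570 and 134), that between asRNA:CR44849 and lncRNA:CR45352 (24659 and 887), that between CG13898 and lncRNA:CR44537 (22941 and 913), and that between CG7320 and lncRNA:CR45935 (26136 and 1080). The rank of 887 was also that of another member 208 bp away, so 1 summit of replicate 6 was matched to both. Ranks were at least 4-fold higher in replicate 5 for 61 members and in replicate 6 for 55, and within 4-fold for 242.

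Members thinned out with distance from start sites. Their median distance to the nearest TSS was 2060.5 bp and the range was 507 to 34700 bp. From 501 to 1000 bp there were 100 members, or 35.4 per Mb of intergenic sequence at that distance. The density was 21.3 per Mb at 1001 to 2000 bp (97 members), 11.5 at 2001 to 5000 bp (103) and 9.63 at 5001 to 10000 bp (69). Beyond 10000 bp it was 2.71 per Mb (35 members). Eligible bases, here and below, were all positions that met the rule, transposable elements included. No sequence was left out because reads map poorly there, and the part of such sequence in the densities was not tested. Intervals of the first and last of these densities were far apart, while those at 2001 to 5000 and 5001 to 10000 bp overlapped. Over 5000 bp from a TSS lay 104 members (25.7%, 21.5 to 30.3), a stretch that made up 55.1% of eligible intergenic bases. Intergenic sequence as a whole held 11.1 regions per Mb, against 19.0 in gene bodies and 115 within 500 bp of a TSS. Median pooled signal did not follow this order, at 58.8, 63.8, 60.4, 56.4 and 59.6 from the nearest class to the farthest.

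**Figure D1:**
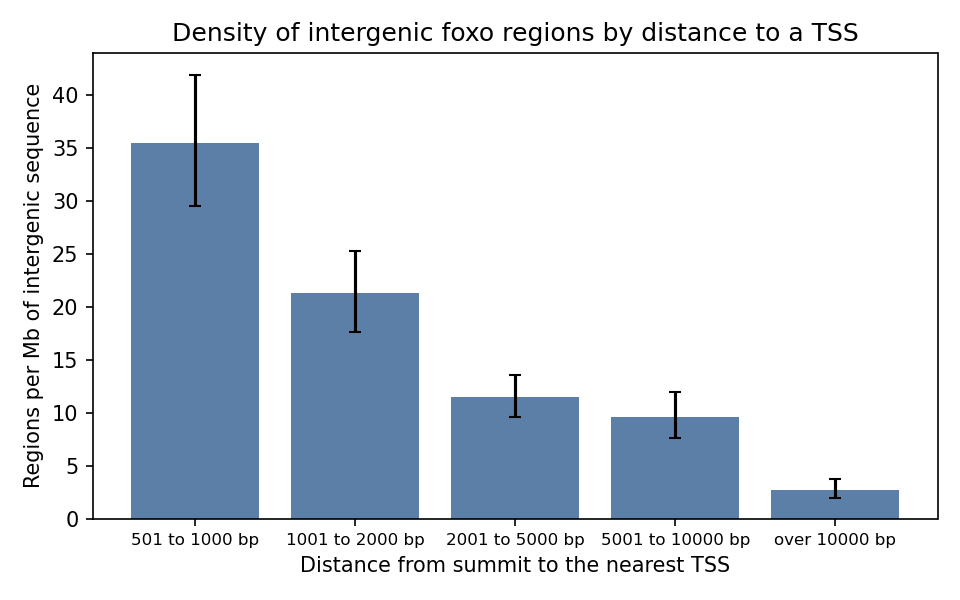
Members per Mb of eligible intergenic sequence (vertical) in 5 classes of distance from summit to nearest TSS (horizontal); bars are densities and whiskers the 95% Clopper-Pearson interval of the class's share of members, scaled to the same unit. The bars step down from 35.4 to 2.71 per Mb.

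Of the 404, 267 (66.1%, 61.2 to 70.7) were upstream of their nearest TSS, against 58.5% of eligible intergenic bases. By distance, at 501 to 1000 bp 88 of 100 were upstream (88.0%, 80.0 to 93.6), against 80.0% of bases at that distance. Over 1000 bp away it was 179 of 304 (58.9%, 53.1 to 64.5), an interval that holds the 56.7% of bases there. Within 500 bp of a TSS the share was 73.2% of 2088 regions. Intervals whose 2 flanking genes diverge held 112 members (27.7%, 23.4 to 32.4), against 21.1% of bases. Convergent intervals held 98 (24.3% against 26.4% of bases) and tandem intervals 194 (48.0% against 52.5%), and both of those base shares lay inside the members' intervals.

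The 5 members farthest from a TSS lay in 2 large intervals on 3L. There were 4 between NijA, which encodes a ninjurin membrane protein, and CG43245, at 31936 to 34700 bp from a TSS, with pooled signals of 133, 99.2, 61.0 and 43.7. The 2 higher ones had ranks of 186 and 346 in replicate 5, against 1301 and 2247 in the other list. The 2 lower ones had no match in replicate 5 and ranked 414 and 2132 in replicate 6. The fifth lay 25145 bp downstream of a TSS of Tollo, a Toll-family receptor gene, with a signal of 90.7 and ranks of 901 and 233.

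Part of the members shared an interval between genes with another member. The 404 lay in 285 intervals, of which 219 held 1, 40 held 2, and 26 held 3 or more. Those 26 held 105 members (26.0%). Within 5000 bp of another member lay 155 members, and 25 members overlapped another in their deposited intervals, so neighbouring members share sequence and signal and are not independent. The intervals and genomic bins named here were picked after their values were seen. The intervals from Su(z)2 to CG13323 and from NijA to CG43245 held 8 each. That from CG18404 to lncRNA:CR46113 held 6, of which 5 were in the IDR list and 5 among the 4000 highest of both replicates. Over all members these shares were 33.7% and 41.3%. The interval of COX7AL2 and CG31668 held 5 in 5808 bp, with signals from 53.3 to 290.

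Chromosome arm 3L held a larger share of members than of intergenic bases. It held 132 (32.7%, 28.1 to 37.5), against 24.9% of eligible bases and 22.3% of all 4000 regions. The X held 36 (8.91%, 6.32 to 12.1), against 14.6% of bases and 13.9% of all regions. For 2L (72), 2R (70), 3R (90) and 4 (4), the share of bases lay inside the interval of the members' share. Much of the count on 3L came from few places: of the 6 bins of 500 kb with the most members, 5 were on 3L. A single bin, 500001 to 1000000, held 18 members and 37 of the 4000 regions in all. Of the 18, 10 were among the 4000 highest of both replicates, against 41.3% of all members and 38.9% of all 4000 regions. Neighbouring members are not independent, so these intervals are too narrow.

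**Figure D2:**
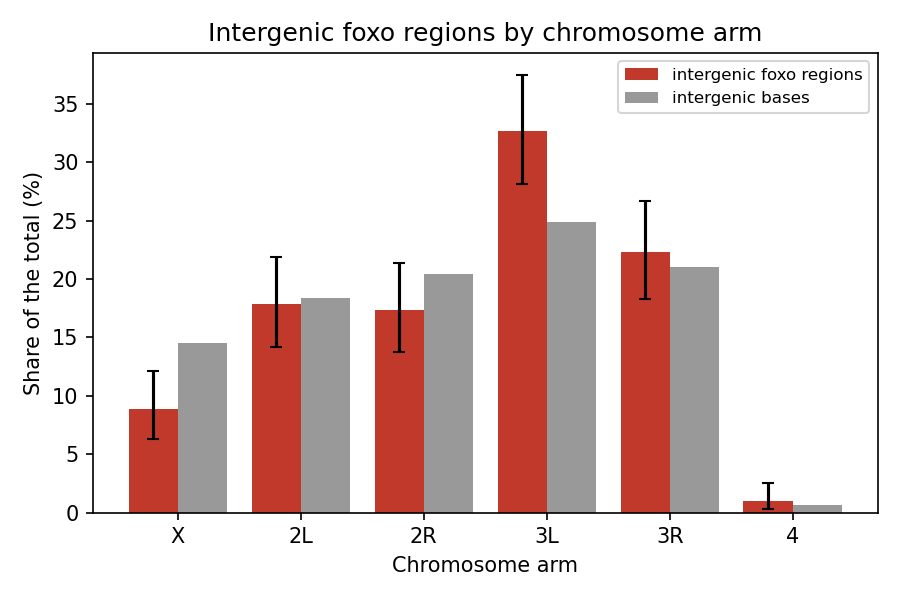
Share of the 404 members (red, with 95% Clopper-Pearson intervals over members) and of eligible intergenic bases (grey) on each chromosome arm, in percent. On 3L the members' share of 32.7% stands above the 24.9% of bases, and on the X the 8.91% stands below the 14.6%.

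The 2 genes on either side of the members were described next. There were 547 distinct genes among the 808 flanking positions. Protein-coding genes took 69.8% of the positions and non-coding RNA genes 27.7% (24.7 to 30.9), while they make up 76.8% and 18.0% of annotated genes. A gene beside several members counts once for each, so this interval is too narrow. The shares of annotated genes also take no account of how much intergenic space each kind of gene has. Transfer RNA genes took 20 positions (2.48%). At least 1 non-coding RNA gene flanked 178 members (44.1%). Of 13945 protein-coding genes, 389 flanked a member (2.79%). That share depends on how much intergenic space a gene has: of the 1158 protein-coding genes beside an interval of over 10000 bp, 125 (10.8%) flanked a member.

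Of the insulin and TOR genes, 3 of 33 matched to the annotation flanked a member (9.09%, 1.92 to 24.3), an interval that holds the 2.79% of all protein-coding genes. The count was 1 over 1000 bp from any TSS and 5 with protein-coding genes only. The member beside Pdk1, the kinase that activates Akt, had a pooled signal of 114 and ranks of 705 and 362, and lay 959 bp from the 5′ end of the gene body (3L, 128301 to 128680). Upstream of foxo itself there were 4 members, in the interval that ends at tRNA:Ser-GCT-2-2. Their signals were 91.6, 67.2, 57.5 and 45.5, at 3327, 5271, 8096 and 3943 bp from the foxo gene body. In that order, their ranks were 503, 948, 1678 and 4802 in replicate 5, and 810, 2592, 2795 and 3373 in the other, so the first 3 were among the 4000 highest of both. The larvae carried a foxo transgene, whose extent the labels do not give. The remaining gene was ImpL2, which encodes a secreted protein that binds insulin-like peptides, with a signal of 44.2 at 3499 bp from its 5′ end. The forkhead list, of which 17 genes matched, had foxo as its only gene beside a member (5.88%, 0.149 to 28.7). That interval also holds the 2.79% of all protein-coding genes.

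Genes of the ecdysone response and nuclear receptors flanked a member in 7 of 30 cases (23.3%, 9.93 to 42.3), against 2.79% of all protein-coding genes. The 10.8% of genes beside long intervals lay inside the interval of that share. The count was 3 in the 4000 highest regions of replicate 5 alone and 6 in those of replicate 6 alone, 3 with the 2000 highest pooled regions and 1 with as many as the IDR list holds. Ecdysone is the steroid hormone whose pulses drive wandering and pupariation. Eip75B, an early nuclear receptor gene of the response, had 2 members beyond its 3′ end. One was at 345 bp with a signal of 85.6 and ranks of 3493 and 523, and the other at 1415 bp with 65.7 and ranks of 675 and 4336. The member at E23, which encodes an ABC transporter, had 67.1 (ranks 1059 and 4224). Eip93F, a late factor gene of the response, had 3 members, 7524 to 11813 bp from its 5′ end. Their signals were 61.8 (ranks 484 and 7489), 56.6 (838 and 8522) and 50.9 (2569 and 3315). ImpE2 (ranks 12584 and 1922), knrl (13560 and 1223), Hr51 (28538 and 2246) and Kr-h1 were the other genes. The member at Kr-h1 had no match in replicate 5 and ranked 1767 in replicate 6. Of the 6 members at Eip75B, E23 and Eip93F, the one at 345 bp from Eip75B and the lowest of the 3 at Eip93F stood among the 4000 highest of both replicates. The median longest interval beside the genes of this list was 1985 bp, against 462 bp over all protein-coding genes, and the part of that difference in the count was not tested.

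Of 34 genes for secreted signalling ligands, 7 flanked a member (20.6%, 8.70 to 37.9), against 2.79% of all protein-coding genes. The 10.8% of genes beside long intervals lay inside that interval. With the 2000 highest regions the count was 3, and with as many as the IDR list holds it was 2. A single member between Wnt6 and Wnt10 had a signal of 112 and ranks of 717 and 409, and counts for both genes. It lay 5630 bp beyond the 3′ end of Wnt6 and 5207 bp from the 5′ end of Wnt10. The member beside upd1, a ligand of the JAK/STAT pathway, had 65.7 (ranks 1045 and 4031) and lay 11066 bp beyond its 3′ end. The one beside Ser, a Notch ligand, had 50.6 (2596 and 3571) and lay 708 bp beyond its 3′ end. The gene wg, the founding Wnt ligand, had 2 members beyond its 3′ end. One was at 3852 bp with 54.6 (4212 and 1740), the other at 4405 bp with 49.9 (16193 and 3178). The remaining genes were myo and vn, with members 737 and 17515 bp from their 5′ ends. The median longest interval beside these ligand genes was 5540 bp.

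Among homeodomain factors, 6 of 82 flanked a member (7.32%, 2.73 to 15.2), an interval that holds the 2.79% of all protein-coding genes. The count was 3 over 1000 bp from any TSS and 12 with protein-coding genes only. The highest was at ct, with a signal of 96.4 and ranks of 790 and 882. It was followed by C15 (81.2, ranks 715 and 2840), tup (77.8, 786 and 2763) and dve (75.0, 1368 and 1525). The member of C15 lay 7536 bp beyond its 3′ end and that of tup 8993 bp from its 5′ end. These 4, the highest of the list by pooled signal, were among the 4000 highest of both replicates, against 41.3% of all members. The list also held ey, whose member it shares with the ligand gene myo, and zfh2. The member of ey ranked 5389 and 3098. Those of zfh2 ranked 5168 and 6282, and 3708 and 10303, so none of these was among the 4000 highest of both. The median longest interval of the list was 7905.5 bp. Of 28 genes of heat and oxidative stress, 1 flanked a member: GstD1, a glutathione S-transferase gene, at 63.7 (ranks 1326 and 4446). That share, 3.57%, was near the 2.79% of all protein-coding genes, and the count was 0 in replicate 6 alone. Of 15 selected microRNA genes none, 0 of 15, flanked a member, but their median longest interval was 0 bp, so this count says nothing about them. A microRNA gene outside this list, mir-9385, did flank a member, with a signal of 55.5.

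Composition was not used to choose the members. GC content within 100 bp of the summit was 38.9% ± 6.63 (SD, n = 404 regions), and in windows 1000 bp to each side it was 42.4% ± 6.92. The difference within members was -3.41 ± 9.14 percentage points. Over 173324 intergenic windows of the same width it was 40.7% ± 8.36, between those values. GC was lower at the summit than in the flanks for 269 members (66.6%, 61.8 to 71.2), against 63.8% of all 4000 regions. The distance from summit to the nearer gene body had a first quartile of 641 bp and a median of 1375 bp. Some flank windows, here and in the sequence counts below, therefore lay in genes, and the part of this in the differences was not tested. The dip was narrow. In narrower windows, of 50 bp to each side, the mean was 37.4% at the summit, 41.6% and 42.0% at 100 bp to each side and 43.3% and 44.1% at 200 bp. A second, shallower low stood 500 to 600 bp to each side, with means of 40.3% at 500 bp on the left and 40.0% at 600 bp on the right, and regions inside gene bodies had one of 40.5% and 40.6% at 600 bp. Summits near a TSS had a wider dip with no such second low.

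**Figure D3:**
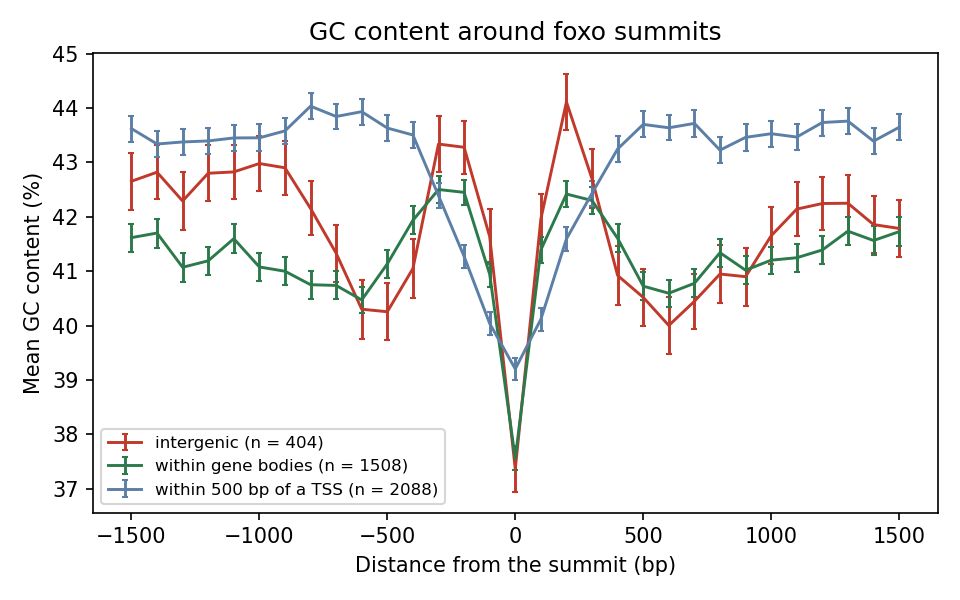
Mean GC content in percent (vertical, axis not from 0) of windows of 50 bp to each side by distance from the summit in bp (horizontal), for members (red), regions inside gene bodies (green) and regions within 500 bp of a TSS (blue); whiskers are standard errors over regions. The red line falls to 37.4% at the summit, stands at 43.3% and 44.1% 200 bp away, and is low again near 500 to 600 bp.

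GC differed with the replicate that held the member. The 35 members matched in replicate 6 alone had a mean of 46.4% ± 7.05, against 37.7% ± 6.02 for the 242 whose ranks were within 4-fold and 41.6% ± 5.80 for the 10 matched in replicate 5 alone. In their flanks the 35 had 43.0% ± 6.06, so their summits were higher in GC on average. Each replicate's own 4000 highest regions held a like number of intergenic ones by the same rule, 411 in replicate 5 and 372 in replicate 6. Their mean GC was 37.5% ± 5.39 and 40.3% ± 7.17.

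The forkhead core was not much more frequent at the members than around them. TGTTTAC, on either strand within 100 bp of the summit, was present in 21 members (5.20%, 3.25 to 7.84). It was in 4.08% (2.83 to 5.69) of their 808 flanks, in 3.78% of intergenic windows, and in 6.95% of all 4000 regions, all inside the members' interval. The shorter TGTTTA was in 84 members (20.8%, 16.9 to 25.1), against 18.2% of flanks and, just above that interval, 25.6% of all regions. The 2 searches overlap, since every TGTTTAC holds TGTTTA. None of the 15 highest members held TGTTTAC. Median signal was 61.0 with it and 59.4 without.

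The 6 highest members with the core were beside varied genes. The highest, with a signal of 125 and ranks of 341 and 573, was 1331 bp upstream of klu, a zinc finger factor gene, with the desaturase gene Fad2 on the other side. The next was 1282 bp from Crtc, the gene of a CREB coactivator, at 110 (347 and 1200). A region between IFT57, an intraflagellar transport gene, and lncRNA:CR44308 had 94.0 (431 and 1527), and one 758 bp upstream of LanA, a laminin gene, had 91.9 (2105 and 519). Another of the members between CG18404 and lncRNA:CR46113 had 73.6 (2355 and 1388). The last, between nej, the gene of the acetyltransferase CBP, and lncRNA:CR42657, had 69.8 (950 and 2847). All 6 were among the 4000 highest of both replicates, but they were picked by pooled signal, which favours this. Of all 21 members with the core, 9 were, against 41.3% of all members and 38.9% of all 4000 regions.

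Other sequences differed more between summits and flanks than the forkhead core did. GAGAGAG was in 27 members (6.68%, 4.45 to 9.57), against 3.71% (2.52 to 5.26) of flanks and 2.19% of intergenic windows. That was below the 11.2% of all 4000 regions and the 12.3% of those near a TSS. In the intergenic regions of each replicate's own 4000 highest, GAGAGAG was in 4.62% for replicate 5 and 8.60% for replicate 6. The value of replicate 5 lay inside the interval of the members' flanks. TGATAAG, a form of the site of GATA factors, was also in 27 members (6.68%, 4.45 to 9.57), against 2.85% (1.81 to 4.24) of flanks, 2.55% of intergenic windows and 5.33% of all 4000 regions. It was in 7.30% of the intergenic regions of replicate 5's own 4000 highest and in 5.65% of those of replicate 6. Runs of 8 A or T were in 16.1% (12.6 to 20.0) of members, 11.1% (9.05 to 13.5) of flanks and 10.8% of intergenic windows. They were in 17.7% of all 4000 regions, a value inside the members' interval. For these runs and for GAGAGAG the members' interval overlapped that of their flanks.

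The sequence AGGTCA was rarer at summits than around them. AGGTCA, the half-site of many nuclear receptors, was in 8 members (1.98%, 0.859 to 3.86), against 5.94% (4.41 to 7.80) of flanks and 5.10% of intergenic windows, while the 3.20% of all 4000 regions lay inside the members' interval. It was in 2.68% of the intergenic regions of replicate 5's own 4000 highest and in 1.08% of those of replicate 6. CACGTG, the E-box core, was in 5 members (1.24%, 0.403 to 2.86), against 3.22% (2.11 to 4.68) of flanks, and those intervals overlap. TATCGATA, the DNA replication-related element of many housekeeping promoters, was in 3 members (0.743%, 0.153 to 2.15), in 0.248% of flanks and in 6.13% of regions near a TSS. The part of the lower GC at summits in these shares was not tested. The other sequences searched were CAGGTAG (the Zelda site), TAATTA (the homeodomain core), TGACTCA (the AP-1 site), TTCNNNGAA (the STAT site) and the repeat CACACACA. For each of these the members' interval overlapped that of their flanks. A match is a description of these letters in these windows, and no binding by a factor follows from it.

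**Figure D4:**
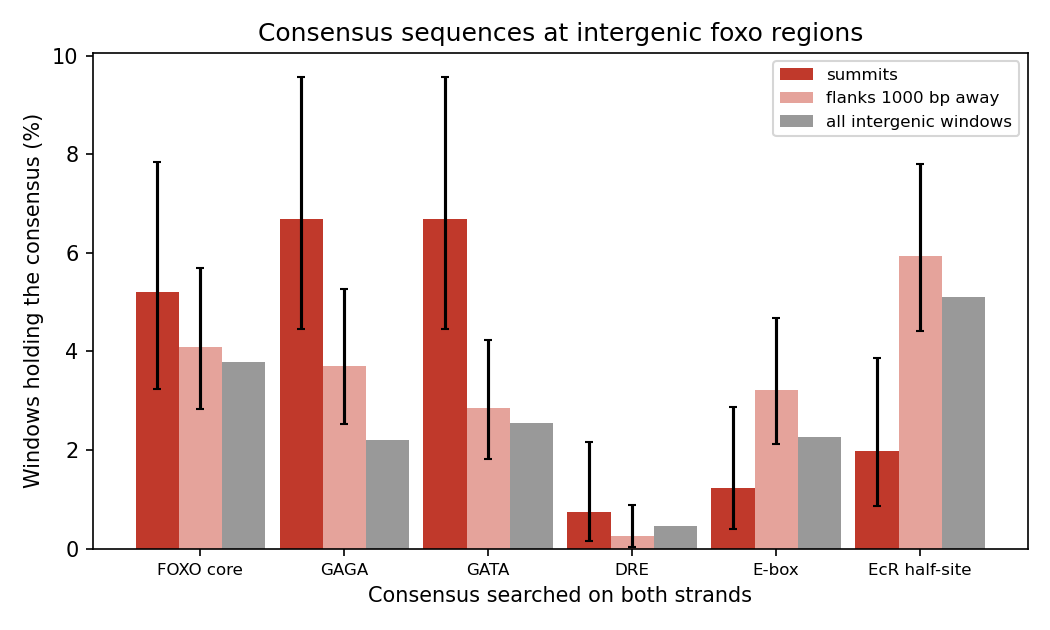
Share of windows (vertical, in percent) that hold each consensus on either strand, at the 404 summits (red), in the 808 windows 1000 bp away (pink) and in 173324 intergenic windows (grey); whiskers are 95% Clopper-Pearson intervals over windows. The labels name the sequences spelled out in the text: the forkhead core, the GAGA repeat, the GATA site, the DNA replication-related element (DRE), the E-box and the nuclear receptor (EcR) half-site. At summits the interval lies clear of that in flanks for the GATA site and the half-site.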

How the data were processed

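The authors deposited region lists on dm6 for each replicate, for the pool of both, and after IDR. Per the notes deposited with the samples, they were made from alignments and a control, which was not analysed here. No aligner or caller is named: both are not given in the sources used here. Signal in the deposited lists is a score of unstated scale from the authors' caller, and the significance column holds the −log10 of a q-value. Library depth is unknown, so no precision follows from it. Each relaxed list held 30000 regions.

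Summits were the deposited offsets. Genes came from Ensembl release 115, without transposable elements: 18164 genes and 23581 TSS positions. Sequence came from the RefSeq Release 6 assembly, which is dm6. Matches in a replicate list were within 150 bp. GC and 13 consensus sequences were read within 100 bp of summits and 1000 bp to each side. Intervals are 95% Clopper-Pearson and cover counting error over regions only. Python 3.11.15, numpy 2.4.6, pandas 2.3.3, scipy 1.17.1 and matplotlib 3.10.9 were used, and the code was tested on simulated data.

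Members, lists and sequences searched were chosen with earlier results of these data known. Of the list genes asked for, 17 did not match the annotation. Genes were named for the 15 highest members, the 6 highest with TGTTTAC, the 4 most one-sided in each replicate, the 5 farthest from a TSS, and up to 4 beside each list. With 1 group there is no test between conditions. Alternatives were other numbers of regions, distances, annotations, windows and match rules, and each replicate alone.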

Additional observations from a re-analysis of the deposited data

How the results depend on the processing

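Of 64 recomputed shares, 42 stayed inside the interval of the reported value. With the 2000 highest regions, 93.5% were matched in both lists, 69.8% were among the 4000 highest of both and 71.4% had lower GC than their flanks; with as many regions as the IDR list holds, these were 94.9%, 80.1% and 74.3%, and 21.3% lay over 5000 bp from a TSS. Over 1000 bp from any TSS, members were 7.60% of regions, 34.2% of them were over 5000 bp away and 58.9% were upstream. With protein-coding genes only, members were 13.0% and 40.1% were over 5000 bp from a TSS. Matching within 300 bp gave 93.1%, and by overlap 93.3%, with 46.8% among the 4000 highest of both. Windows of 50 and 200 bp to each side held TGTTTAC in 2.72% and 8.66% and GAGAGAG in 3.71% and 13.6%. GC was lower than the flanks in 54.5% with 200 bp and in 58.2% with flanks at 500 bp.

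From single replicates, lower GC was found in 61.0% (without replicate 5) to 70.1% (without replicate 6), members were 9.30% to 10.3%, 25.3% to 27.0% were over 5000 bp away, 64.8% to 65.5% upstream, 4.30% to 5.11% held TGTTTAC and 4.62% to 8.60% GAGAGAG. List counts were recomputed in 49 cases, chosen after seeing the data, and 35 stayed within 1.5 times. Leaving out a replicate moved 2 of them past that: the ecdysone list to 3 without replicate 6 and the stress list to 0 without replicate 5. The cause of these changes was not tested, except that a wider window holds more matches by construction. Depth is unknown and limits what the ranks can show.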
